A study of Mus musculus with 44 samples.

Results

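Livers of Ripk3 knockout mice (Ripk3-/-) kept on CD-LFD, a diet low in fat and without choline, were compared with livers of Ripk3 knockout mice kept on normal chow, the control diet. The libraries were chosen by the knockout and diet names on the columns of the deposited count table, which gave 3 CD-LFD and 6 control libraries of 44 in all. The whole study crossed 3 genotypes (wild type, Ripk3 knockout and Mlkl knockout) with 3 diets (control, CD-LFD and CD-HFD, which lacks choline and is high in fat), and asked about inflammation driven by necroptosis in hepatocellular carcinoma. In all groups used here the diet began at 2 months of age and lasted 6 months, and both groups of the main comparison are labelled as carrying the same Ripk3 deletion, for which the labels name no promoter or Cre. For reference, 6 wild-type control, 6 wild-type CD-LFD, 4 Ripk3 knockout CD-HFD, 6 Mlkl knockout control and 4 Mlkl knockout CD-LFD libraries were read beside them. The labels name no choline-supplied version of the low-fat diet as a control, and they give no sex, litter, animal or batch, so the p-values measure only the spread between these libraries.

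RIPK3 is a kinase that, once activated downstream of death receptors, Toll-like receptors or the nucleic acid sensor ZBP1, phosphorylates MLKL, the protein that ruptures the plasma membrane in necroptosis. Choline is the precursor of phosphatidylcholine, which hepatocytes need to coat and secrete very-low-density lipoprotein. Rodents without dietary choline store triglyceride in hepatocytes and with time develop inflammation, scarring and liver tumours, a common model of steatohepatitis that leads to liver cancer.

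Ripk3 itself, the deleted gene, was measured first. Its level, in CPM (reads scaled to library size with trimmed mean of M-values factors, TMM, as are all levels below), was 0 in controls 1, 2 and 6, 0.326 in control 3, 0.315 in control 4 and 1.26 in the library labelled control 5. It was 0 in CD-LFD 1 and 2 and 0.0755 in CD-LFD 3. The controls held 13 reads, 9 of them in the library labelled control 5, against 1 read in the CD-LFD libraries, a ratio of control to CD-LFD of 8.78 (exact 95% interval 1.32 to 373, counting error only), and the gene was not called (adjusted p = 0.0959). Wild-type control libraries held 3 to 20 reads each (0.511 to 4.89 CPM), so a Ripk3 level near 0 in the knockout rests on few reads. The library labelled control 5 lay within that range despite its knockout label, and the source of its Ripk3 reads was not tested. Without this library 3241 genes were called in the main comparison, and it stays among the controls below. Mlkl, the effector below RIPK3 in the pathway, lay between 2.53 and 8.10 CPM in the controls (median 3.71) and at 15.2, 9.49 and 12.5 in CD-LFD 1, 2 and 3, a log2 change of 1.51 (SE 0.282, adjusted p = 0.000129).

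Total counts ran from 4957345 to 8889872 in the controls and were 4676294, 5214854 and 12266692 in CD-LFD 1, 2 and 3, so the third CD-LFD library was the deepest. Between 16854 and 18557 genes had a read in the controls and between 18337 and 21568 in CD-LFD. Albumin (Alb) lay between 50400 and 103200 CPM in the 9 libraries, and 5 of the 7 pancreatic acinar markers in the table had no read in either group. Controls 1 and 2 stood apart from controls 3 to 6: on the second principal component (14.8% of the variance) they lay at -40.4 and -35.8 and the others between 16.3 and 38.5, their mitochondrial share was 5.61% to 7.03% against 3.07% to 4.24%, and their share of reads on predicted genes was 0.404% to 0.421% against 0.293% to 0.314%. In CPM over all counts, without TMM factors, CD-LFD 3 held 11.7 of Xist, the RNA that coats the inactive X chromosome, against at most 1.91 in the other 43 libraries, with 50.1 of the Y-linked gene Ddx3y. For the main comparison, counts over gene lists are given again without CD-LFD 3, with controls 1 and 2 as the only controls, or without another single library, where that moved a count of 3 or more by over 1.5 times. They are also given with libraries scaled by total count alone where that moved a count so far or turned the split of higher and lower.

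Across the genome the diet change was broad and leaned upward. Of 14862 genes tested with edgeR's quasi-likelihood test and Benjamini-Hochberg adjustment at 0.05, 3576 were called (24.1%), 2075 of them higher on CD-LFD (14.0%) and 1501 lower (10.1%). These shares are the background for the list counts of this comparison below. At 2-fold or more, 1552 were higher (10.4%) and 511 lower (3.44%), and 5521 genes had an unadjusted p under 0.05 (37.1%). The groups did not overlap for 3075 genes (20.7%) and were both called and separate for 2285 (15.4%). The split leaned further upward when libraries were scaled by their total count alone, with 3910 higher and 513 lower and a median change over all genes of 0.32 in place of 0.01 on the log2 scale. Without CD-LFD 3, 1360 genes were called, 902 higher and 458 lower, and 1338 of them were among the calls above in the same direction. With controls 1 and 2 as the only controls 1278 were called (911 higher, 367 lower), and with controls 3 to 6 alone 4659 (2491 higher, 2168 lower).

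**Figure D1:**
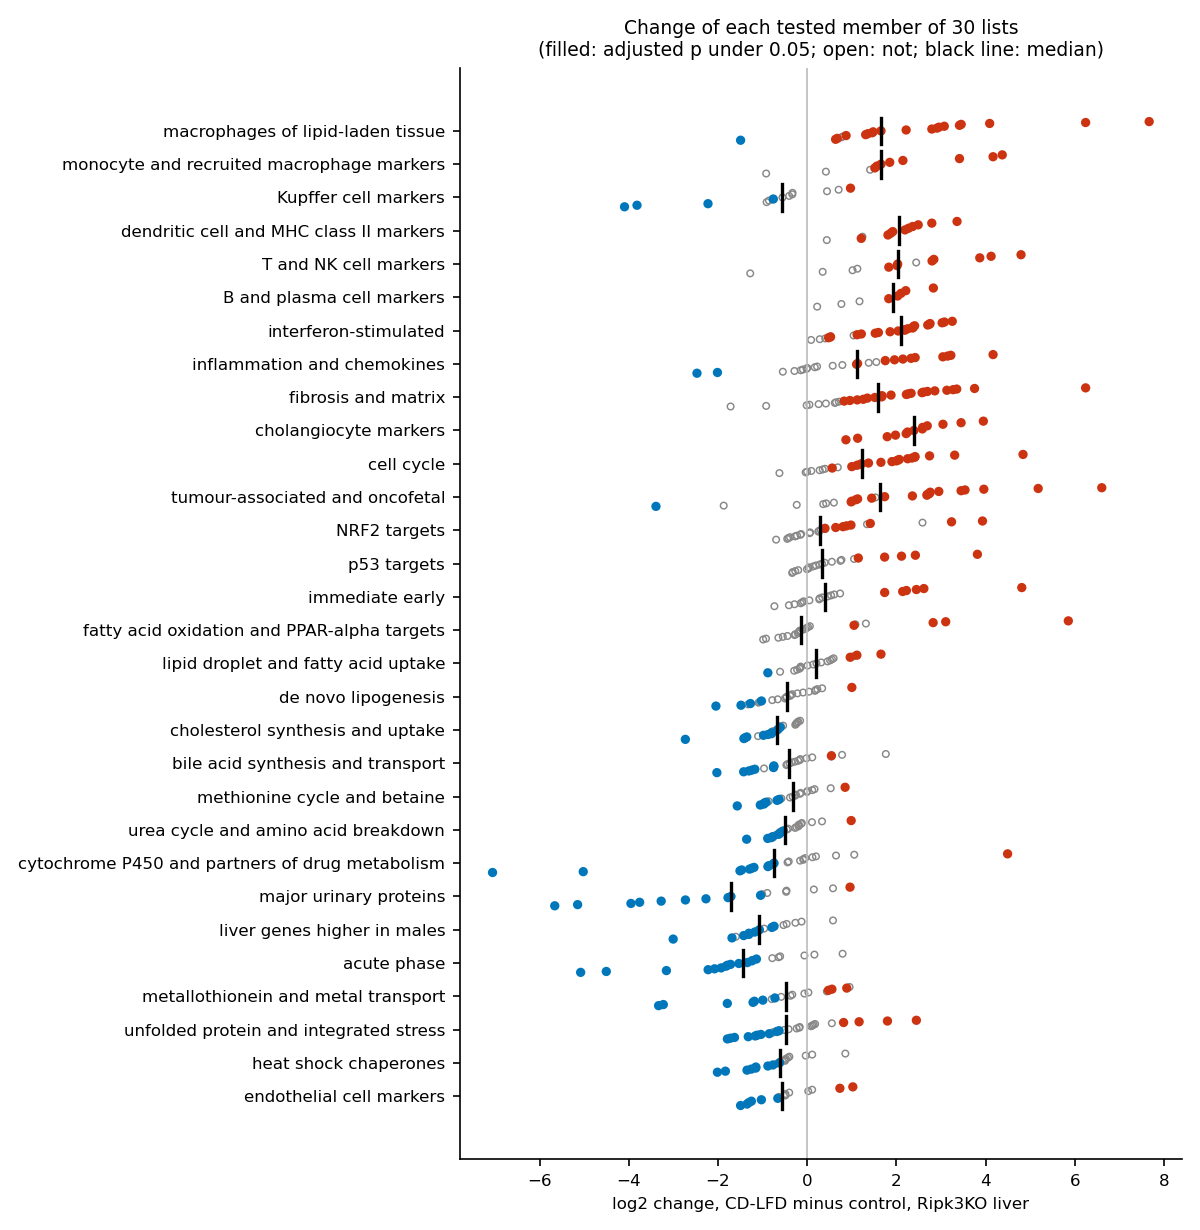
Log2 change from control to CD-LFD in Ripk3 knockout liver (horizontal axis) for the tested members of 30 gene lists, with 1 point a gene, filled where the adjusted p was under 0.05, and a black line at each list's median. Lists of macrophage, interferon, bile duct, matrix and cell cycle genes lie mostly to the right of 0 and the major urinary protein, P450, cholesterol and acute phase lists mostly to the left, and the acute phase members called lower number 13 with all controls and 1 with controls 1 and 2 alone.

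The largest rises were in genes that chow-fed knockout liver barely expressed. The largest changes, here and between the choline-deficient diets, were named only from called genes whose groups did not overlap. That separation was therefore set by the rule. Sult1e1, the sulfotransferase that inactivates oestrogens, went from between 0.209 and 1.26 CPM in the controls (median 0.455) to 258, 168 and 295 in CD-LFD 1, 2 and 3, a log2 change of 8.64 (SE 0.669, adjusted p = 8.27e-13). Every CD-LFD library lay far above every control. Gpnmb, a transmembrane glycoprotein of lipid-loaded macrophages, was at 0 to 0.419 in the controls (median 0.149) and at 39.2, 26.8 and 50.8 on CD-LFD (7.67, SE 0.526, adjusted p = 1.92e-14). Mmp12, the macrophage elastase, was at 0 to 0.559 (median 0.268) and at 24.6, 17.1 and 28.03 (6.24, SE 0.414, adjusted p = 1.12e-14). Ly6d, a small surface protein of the Ly6 family, reached 105, 14.3 and 85.1 against at most 1.93 in the controls (6.61, SE 0.668), with CD-LFD 2 well below the other two. Cyp2d12, a cytochrome P450 of a family of close copies, reached 38.7, 16.4 and 48.4 against at most 1.12 (6.08, SE 0.616).

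A further 5 rises of this size rested on 0 or 1 control read, so only counting ratios are given, with exact 95% intervals. Vmn2r3, a gene of the vomeronasal receptor family, had 1 control read and 4.79, 7.59 and 20.1 CPM on CD-LFD, 481-fold higher (85.7 to 19056). Sprr1a, a cornified envelope protein also made by injured cells, had 1 control read and was 79.9-fold higher (13.7 to 3214). Cbx3-ps8, a pseudogene whose reads may come from its parent, had 1 control read and was 118-fold higher (20.7 to 4734). Fbn2, the microfibril protein fibrillin 2, had no control read and was at least 30.1-fold higher, and Cfap44, a cilium protein, had none and was at least 20.2-fold higher. In these bounds the group without reads was set to the floor of 3 counts over the group. Cbx3-ps8 lost its call without CD-LFD 3 (adjusted p = 0.0631) and with controls 1 and 2 as the only controls (0.107), as did Fbn2 in the latter (0.0657).

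Among rises of genes above 50 CPM in a group, Meg3, an imprinted long non-coding RNA, went from 0.978 to 6.997 CPM in the controls (median 3.65) to 94.8, 161 and 81.1 (4.94, SE 0.675, adjusted p = 7.64e-07). Ntrk2, the receptor for brain-derived neurotrophic factor, went from 0.972 to 5.05 to 79.8, 35.2 and 88.5 (4.31, SE 0.589). Ifi27l2b, of the interferon-inducible Ifi27 family, went from 2.93 to 10.6 (median 5.65) to 123, 64.7 and 97.8 (3.98, SE 0.325). For all 3 genes the lowest CD-LFD library lay above the highest control by a wide margin. Cib3, a calcium and integrin-binding protein, was at 123, 37.9 and 167 against at most 23.9 (3.55, SE 0.518). Lgals3, the lectin galectin 3 of activated macrophages, was at 55.6, 33.1 and 73.0 against at most 7.46 (3.45, SE 0.285), and Anxa2, a membrane-binding annexin, at 149, 25.7 and 143 against at most 13.4 (3.31, SE 0.317). CD-LFD 2 was the lowest of the 3 for all but Meg3.

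The 10 largest falls were those of 2 cytochrome P450 genes, 4 major urinary protein genes, Hnf4aos, the scavenger receptor Cd163, Dct and Lrit2. Cyp2b10, the phenobarbital-inducible P450, lay between 2.17 and 20.6 CPM in the controls (median 14.7) and held 2 reads in all on CD-LFD, 160-fold lower (44.2 to 1329, adjusted p = 2.49e-07). Cyp2c29, an abundant P450 of a family of close copies, went from 543.8 to 1457 (median 1126) to 36.03, 35.4 and 29.8 (-5.02, SE 0.67, adjusted p = 4.79e-07). The CD-LFD values of Cyp2c29 lay within a narrow band far below every control. Mbl2, the mannose-binding lectin of the complement system, went from 246 to 480 (median 369) to 64.6, 42.6 and 42.1 (-2.91, SE 0.309, adjusted p = 3.77e-09), and Serpina1e, an alpha-1-antitrypsin of a family of close copies, from 8586 to 20590 to 1953, 2987 and 813 (-3.01, SE 0.48). Hnf4aos, a transcript antisense to the hepatocyte regulator Hnf4a, fell by 4.24 on the log2 scale (SE 0.636), though whether the counting used strand is not given in the sources used here, so its reads may include those of Hnf4a.

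Major urinary proteins, pheromone carriers whose genes are near-identical copies, gave 5 of the named falls. Mup15 went from 85.7 to 342 CPM (median 213) to 4.79, 1.69 and 5.29 (-5.66, SE 0.85, adjusted p = 4.1e-06), and Mup17 from 315 to 543 (median 407) to 28.7, 9.49 and 41.8 (-3.95, SE 0.85, adjusted p = 0.000707). Mup9 (-5.15), Mup19 (-3.76) and Mup16 (-3.27) were called too. Reads can be split among these copies, so single values are uncertain. The size of 2 other named falls depended on which controls were used. B3galt1, a galactosyltransferase, lay at 13.8 and 17.4 in controls 1 and 2, at 74.4 to 159 in controls 3 to 6 and at 8.33, 7.38 and 10.2 on CD-LFD (-3.31, SE 0.63, adjusted p = 0.000158), and with controls 1 and 2 alone the change was -0.80 (adjusted p = 0.468). Atp11a, a phospholipid flippase, went likewise from -2.92 (SE 0.487) to -1.12 (adjusted p = 0.112). Dct, the pigment enzyme dopachrome tautomerase, fell by 3.72 (SE 0.832) and with controls 1 and 2 alone had an adjusted p of 0.058. Lrit2, a leucine-rich repeat protein, fell by 3.70 (SE 0.768).

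**Figure D2:**
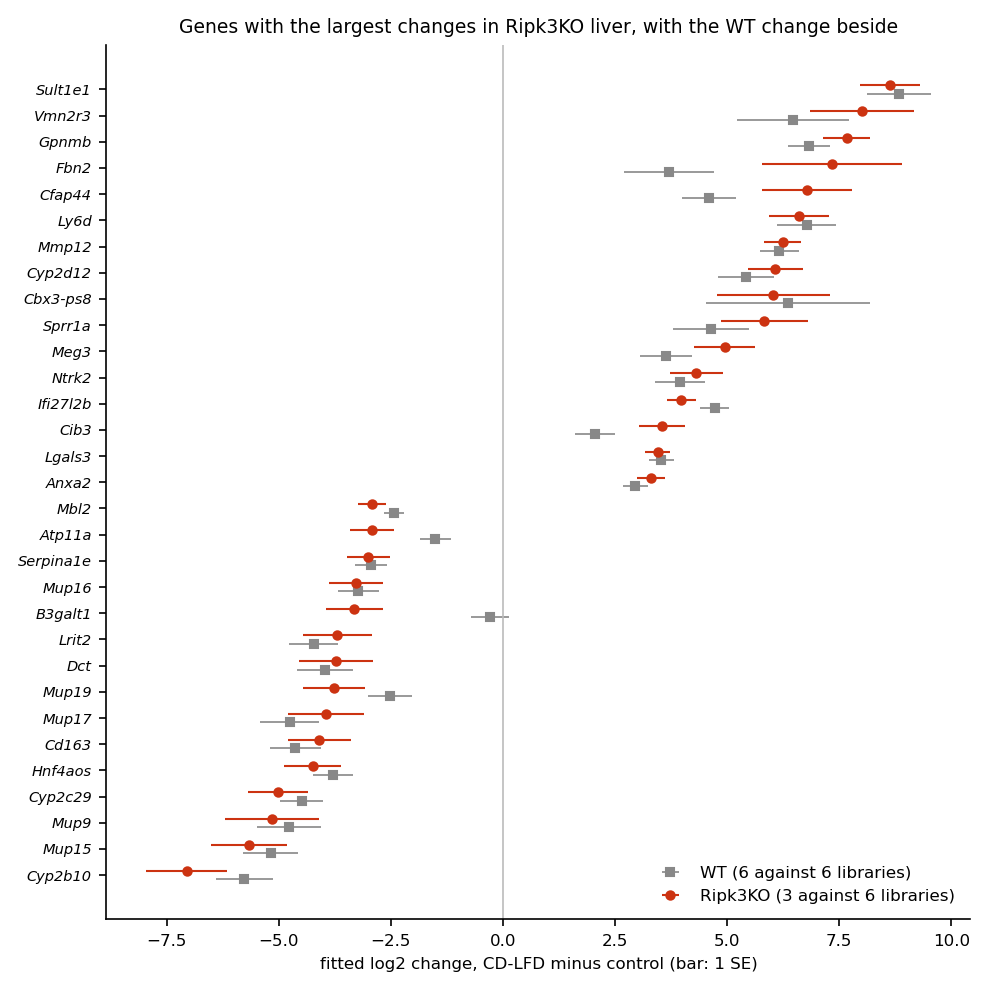
Log2 change from control to CD-LFD with its standard error for the genes with the largest rises and falls, in Ripk3 knockout and in wild-type liver. Fitted changes of genes with 3 or fewer reads in a group, such as Vmn2r3 (1 control read) and Fbn2 (none), depend on the count added before logs are taken, and the named falls reach from Mbl2 at -2.91 to Cyp2b10.

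The macrophage genes of a fat-loaded liver rose, while the markers of resident Kupffer cells were split. In bulk liver fewer cells of a type and less RNA per cell cannot be told apart. Of 21 tested genes of macrophages in lipid-laden tissue, 18 were higher and 1 lower, with a median log2 change of 1.65 beside 0.01 over all genes. Trem2, the lipid-sensing receptor of scar- and fat-associated macrophages, was at 0 to 1.47 CPM in the controls (median 0.978) and at 14.2, 10.96 and 17.5 on CD-LFD (4.09, SE 0.35, adjusted p = 1.16e-11). Itgax, the integrin CD11c, was at 12.3, 4.85 and 13.4 against at most 1.68 (3.42, SE 0.399). Lpl, lipoprotein lipase, was at 121, 80.3 and 135.3 against at most 22.1 (3.07, SE 0.284), and Cd63, a lysosomal tetraspanin, at 29.6, 14.5 and 52.8 against at most 7.96 (2.79, SE 0.334). Cd68, a lysosomal glycoprotein of macrophages in general, moved less, from 2.30 to 9.64 to 24.2, 14.3 and 24.0 (1.66, SE 0.316). Spp1, osteopontin, made by macrophages and by bile duct cells, was at 167, 48.3 and 489 against 32.6 to 84.5 (2.22, SE 0.373), with CD-LFD 2 inside the control range. Fabp5, a fatty acid-binding protein, was the 1 member that fell (-1.49, SE 0.425, adjusted p = 0.00931). Without CD-LFD 3, 12 of the 21 were higher and none lower, and Spp1 (adjusted p = 0.0539) and Fabp5 (0.0516) were among the calls lost.

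Markers of monocytes and newly recruited macrophages moved the same way, with 8 of 11 higher, none lower and a median of 1.65, and 5 higher without CD-LFD 3. Called members made up 72.7%, beside 24.1% over all genes. Their summed level did not separate the groups, at 927.3 to 2941 CPM in the controls and 1092 to 1272 on CD-LFD. The list includes fibronectin (Fn1), whose values are given with the matrix genes. Ms4a7 was at 3.96, 1.26 and 9.06 CPM on CD-LFD against at most 0.419 in the controls (4.37, SE 0.552), and Cx3cr1, the fractalkine receptor, at 9.58, 4.22 and 21.9 against at most 1.26 (4.17, SE 0.47). Ccr2, the receptor that draws monocytes from blood, was at 5.62, 3.79 and 13.5 against 0.630 to 3.37 (2.15, SE 0.399, adjusted p = 0.000116) and lost its call without CD-LFD 3 (0.0558). In all 3 genes CD-LFD 3 was the highest and CD-LFD 2 the lowest, still above every control.

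Of 13 Kupffer cell markers, 1 was higher and 4 were lower (38.5% called, beside 24.1% over all genes), or 2 and 2 when scaled by total count alone. The median was -0.55. Cd163, the haemoglobin scavenger receptor, went from 4.40 to 34.0 CPM (median 14.9) to 0.625, 3.16 and 0.0755 (-4.10, SE 0.702, adjusted p = 3.68e-05). Timd4, the phosphatidylserine receptor of embryo-derived Kupffer cells, went from 0.628 to 5.73 (median 2.97) to 0, 0.211 and 0.302 (-3.82, SE 0.803, adjusted p = 0.000543), with an adjusted p of 0.169 against controls 1 and 2 alone. Every CD-LFD library lay below every control for both. Marco, a scavenger receptor, had an adjusted p of 0.0466 and of 0.312 without CD-LFD 3. Clec4f, the lectin that defines mouse Kupffer cells, was at 48.7, 92.1 and 12.4 against 26.6 to 124 (-0.40, adjusted p = 0.606), Vsig4 changed by -0.86 (adjusted p = 0.217) and Cd5l by -0.91 (adjusted p = 0.187). C1qa, a complement subunit, was the member called higher (0.97, adjusted p = 0.0109, and 0.164 without CD-LFD 3). The summed level of the markers was 510.8 to 1229 CPM in the controls and 595.8 to 641.6 on CD-LFD. Without CD-LFD 3 none was higher and 2 were lower, and with controls 1 and 2 as the only controls 3 markers were higher and 1 lower, with a median of 0.28.

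T and NK cell markers were higher from very low levels. Of 13 T and NK cell markers 8 were higher and none lower (median 2.03), and their summed level was 3.42 to 4.67 CPM in the controls and 10.6 to 24.5 on CD-LFD. Cd8a, a subunit of the co-receptor of cytotoxic T cells, had 4 control reads and lay at 2.71, 2.53 and 5.29 CPM on CD-LFD (4.80, SE 0.839, adjusted p = 5e-05). Its partner Cd8b1 had 3 control reads and was 22.7-fold higher (7.30 to 114), and Pdcd1, the exhaustion receptor PD-1, had 1 and was 23.7-fold higher (3.68 to 993) but not called without CD-LFD 3 (adjusted p = 0.302). Cd4, of helper T cells and some macrophages, was not called (-1.28, adjusted p = 0.153). Ccl5, a chemokine of T cells, was at 4.37, 5.06 and 9.37 against at most 1.94 (3.04, SE 0.527). Without CD-LFD 3 only 2 of the 13 were called, and with controls 1 and 2 alone also 2.

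Of 12 markers of dendritic cells and MHC class II presentation, 10 were higher and none lower (median 2.06, summed level 55.5 to 134.5 CPM in the controls and 229.5 to 569.5 on CD-LFD). H2-Aa, a class II alpha chain, went from 8.59 to 26.4 (median 16.4) to 67.7, 46.4 and 128 (2.27, SE 0.303, adjusted p = 4.79e-07). Ciita, the transactivator of class II genes, went from 0.241 to 1.54 to 6.04, 3.58 and 7.86 (2.49, SE 0.382, adjusted p = 5.79e-06), and Cd74, the invariant chain, from 17.4 to 59.1 to 137, 84.1 and 187 (1.81, SE 0.282). All 3 CD-LFD libraries lay above all controls for each. Of 8 B and plasma cell markers 5 were higher, 1 without CD-LFD 3, 2 without control 3 or control 4, 3 without control 6 and none with controls 1 and 2 alone. Their summed levels overlapped, at 27.41 to 97.95 CPM in the controls and 29.99 to 157.7 on CD-LFD. Immunoglobulin light chain Igkc was at 7.92, 8.85 and 59.0 and heavy chain Ighm at 14.2, 14.8 and 76.2. Both were far higher in CD-LFD 3 than in the other CD-LFD libraries, and neither was called (adjusted p = 0.093 and 0.784). Of the 12 neutrophil markers 5 were tested and 1 was called higher, the receptor gene Csf3r (20% called, beside 24.1% over all genes). Its change was 1.08, and it was not called when any single CD-LFD library was left out or with controls 1 and 2 alone. The calprotectin genes S100a8 (-0.29) and S100a9 (-0.78) were not called.

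Of 26 tested inflammatory cytokine and chemokine genes 11 were higher and 2 lower (50% called, beside 24.1% over all genes, median 1.12). The list's summed level did not separate the groups, at 62 to 286.1 CPM in the controls and 129 to 228.7 on CD-LFD. Tnf, the ligand upstream of RIPK1, was at 1.04, 0.632 and 1.59 CPM against at most 0.489 (2.42, SE 0.625, adjusted p = 0.00424, and 0.119 without CD-LFD 3). Ccl2, which attracts CCR2-bearing monocytes, was at 4.999, 1.90 and 5.36 against 0 to 3.10 (1.96, SE 0.53). The members that fell were Cxcl1, a neutrophil chemokine (-2.01, adjusted p = 0.041), and Cxcl13, a B cell chemokine (-2.47, adjusted p = 0.041), and neither was called when libraries were scaled by total count alone (adjusted p = 0.075 and 0.0696). The count was 3 higher and none lower without CD-LFD 3, 13 and none by total count alone, and 14 higher and none lower with controls 1 and 2 as the only controls.

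**Figure D3:**
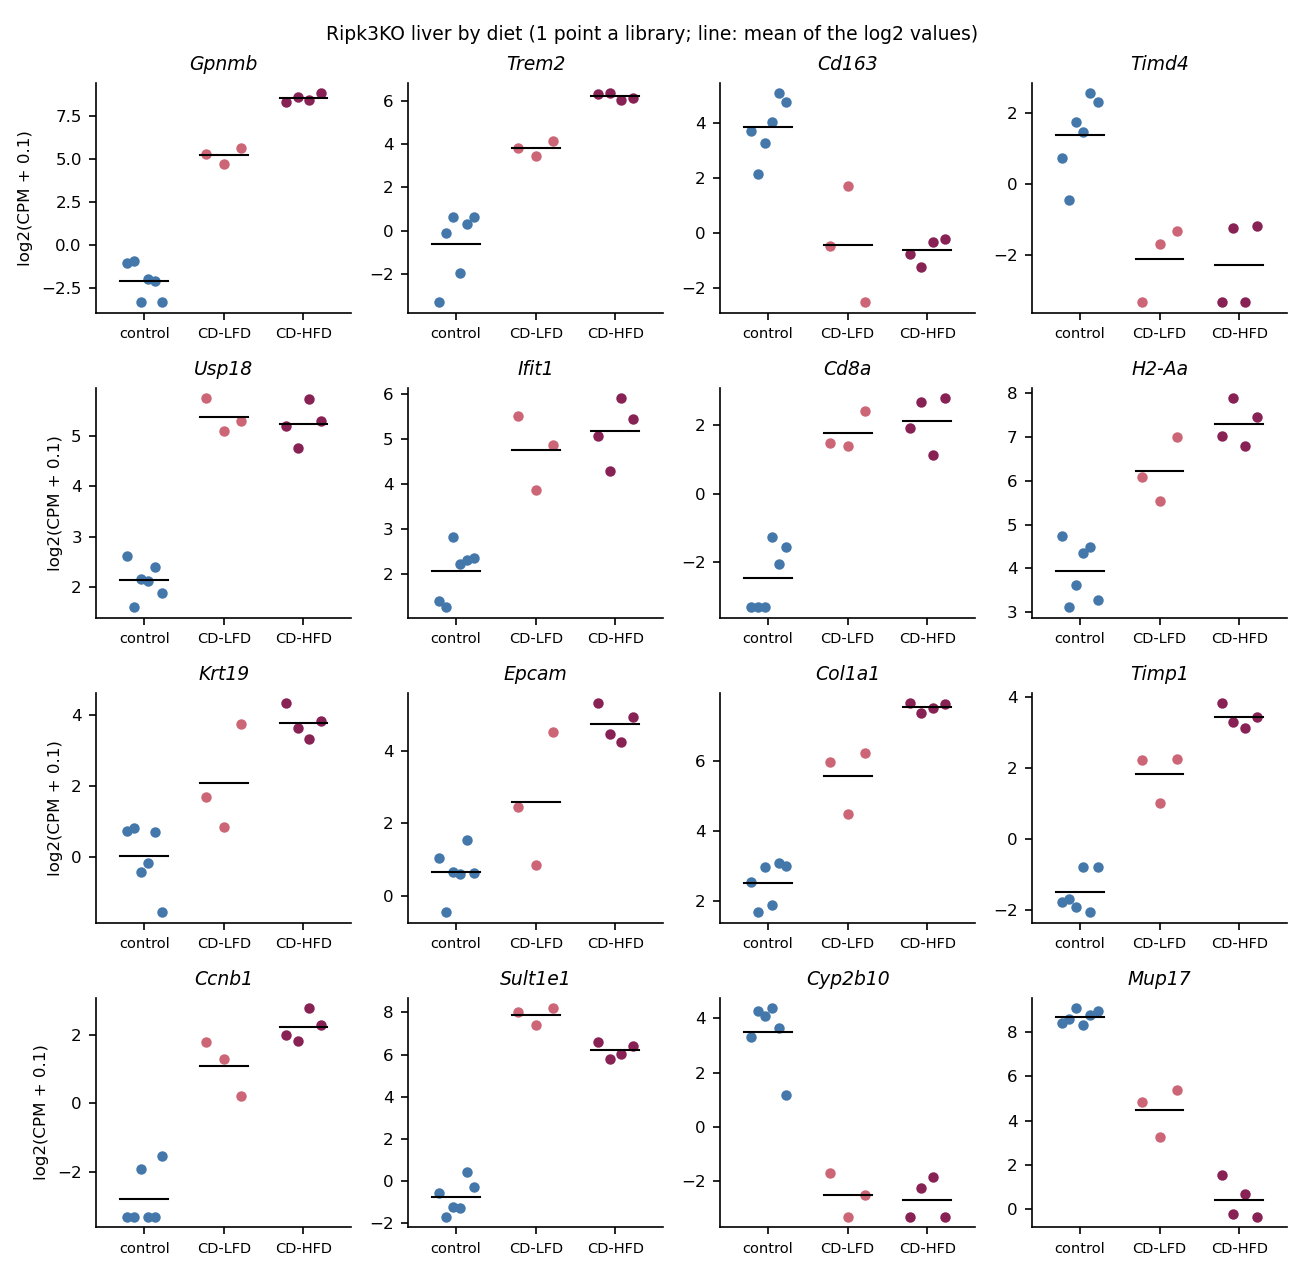
Level of 16 genes in each Ripk3 knockout library on the control, CD-LFD and CD-HFD diets, as log2 of CPM plus 0.1, with 1 point a library. Gpnmb, Trem2, Usp18 and Col1a1 lie higher in every CD-LFD library than in every control, and Cd163, Timd4, Cyp2b10 and Mup17 lie lower in every CD-LFD library than in every control.

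Interferon-stimulated genes rose, and their count changed little with the libraries used. Of 26 tested, 21 were higher and none lower, with a median log2 change of 2.11 beside 0.01 over all genes, and the count was 19 without CD-LFD 3 and 21 with controls 1 and 2 alone. Their summed level was 442.8 to 652.4 CPM in the controls and 862.4 to 1329 on CD-LFD. Usp18, the protease that strips ISG15 and damps receptor signalling, went from 2.93 to 6.03 CPM (median 4.33) to 53.7, 34.1 and 39.4 (3.25, SE 0.314, adjusted p = 3.39e-10). Oas1a, a sensor of double-stranded RNA, went from 0.945 to 4.75 (median 1.501) to 24.8, 13.7 and 14.8 (3.08, SE 0.351, adjusted p = 1.97e-08). Ifit1, which binds foreign RNA caps, went from 2.30 to 7.01 (median 4.73) to 45.6, 14.5 and 29.2 (2.74, SE 0.399, adjusted p = 2.47e-06). All CD-LFD libraries lay above all controls for each of these genes, and CD-LFD 2 was the lowest of the group each time. Isg15, the ubiquitin-like modifier, went from 4.19 to 8.82 (median 6.40) to 45.6, 20.9 and 36.9 (2.41, SE 0.403, adjusted p = 2.56e-05). Among the transcription factors of the pathway, Irf7 (1.596, SE 0.271) was higher and Stat2 was at 0.09 without a call. Cxcl10, an interferon-induced chemokine on the cytokine list, was at 13.8, 4.64 and 10.3 against 0.628 to 5.54 (1.75, SE 0.45), with CD-LFD 2 inside the control range.

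The transcription factor complex ISGF3 binds the interferon-stimulated response element, searched here as a pair of TTTC with any 2 bases between them, on both strands, in RefSeq promoter windows of the GRCm38.p6 build, which run from 250 bases before each annotated start to 50 after it. Of 22 windows found for 19 of the 26 members, 14 held a match (63.6%), beside 3.44% of all 32851 windows. Among members called higher 9 of 17 windows held one and among the other members 5 of 5. The 200 bases before the start of 2 of the genes above are printed to show where the matches lie, in capitals, on each gene's own strand. The Ifit1 window is chr19:34640689-34640888 on the plus strand, with matches whose first bases lie 104 and 85 bases before the start. The Isg15 window is chr4:156200819-156201018 on the minus strand, with 3 overlapping matches, all to the reverse complement (a pair of GAAA with 2 bases between them), from 78, 72 and 66 bases before the start.
Ifit1: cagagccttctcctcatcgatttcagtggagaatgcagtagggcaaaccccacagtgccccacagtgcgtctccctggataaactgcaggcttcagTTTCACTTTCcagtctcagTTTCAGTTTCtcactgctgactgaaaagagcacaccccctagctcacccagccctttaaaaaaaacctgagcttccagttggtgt
Isg15: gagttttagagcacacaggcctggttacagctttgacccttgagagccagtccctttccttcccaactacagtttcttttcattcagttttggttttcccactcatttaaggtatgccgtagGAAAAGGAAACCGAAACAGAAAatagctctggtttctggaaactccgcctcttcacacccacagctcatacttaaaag

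Of 32 tested scar and matrix genes 22 were higher and none lower (median 1.59). Their summed level did not separate the groups, at 1091 to 3085 CPM in the controls and 1471 to 1683 on CD-LFD. Fn1, fibronectin, which hepatocytes make in quantity, was at 848.8, 1125 and 738 against 875 to 2816 (-0.92, SE 0.363, adjusted p = 0.0579). Col1a1, the chain of type I collagen that dominates scar, went from 3.14 to 8.38 CPM (median 6.83) to 63.1, 22.3 and 75.5 (3.13, SE 0.376, adjusted p = 5.45e-08). Col3a1, type III collagen, went from 9.63 to 25.8 (median 14.5) to 63.1, 33.7 and 138 (2.22, SE 0.324, adjusted p = 2.47e-06). Timp1, an inhibitor of matrix metalloproteinases, went from 0.140 to 0.481 (median 0.202) to 4.58, 1.90 and 4.61 (3.75, SE 0.599, adjusted p = 1.79e-05). The groups did not overlap for any of these, and CD-LFD 2 was each time the lowest of its group. Lox, which cross-links collagen, was at 1.88, 1.05 and 2.42 against at most 0.481 (3.27, SE 0.663). Acta2, the smooth muscle actin of myofibroblasts, moved less (1.35, SE 0.453, adjusted p = 0.0257, and 0.0946 without CD-LFD 3), and Tgfb2, a fibrogenic growth factor, was at 1.25, 0.211 and 4.91 against at most 0.628 and was not called without CD-LFD 3 (adjusted p = 0.322). Lrat, the retinol-storing enzyme of quiescent stellate cells, was not called (0.28, adjusted p = 0.615). Of 14 stellate and fibroblast markers 8 were higher and 1 lower, with a summed level of 257.2 to 444.5 CPM in the controls and 365.7 to 728.8 on CD-LFD, and their part in the collagen result was not tested. Without CD-LFD 3 the matrix count was 12 and the stellate count 3 higher and none lower, and with controls 1 and 2 alone 3 stellate markers were higher and 1 lower. By total count alone 9 stellate markers were higher and none lower.

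All 13 tested cholangiocyte markers, genes of the bile duct lining, were higher (median 2.39), but this count rested on CD-LFD 3. Krt19, the duct keratin, was at 3.12, 1.69 and 13.4 CPM against 0.241 to 1.68 in the controls (2.58, SE 0.486, adjusted p = 0.00014), and Epcam, an adhesion protein of ducts and progenitors, at 5.42, 1.69 and 23.0 against 0.628 to 2.79 (2.69, SE 0.565, adjusted p = 0.000536). CD-LFD 3 was several times above the other two, and CD-LFD 2 lay at or inside the control range. Without CD-LFD 3, 1 of the 13 was called, and Krt19 (adjusted p = 0.229), Epcam (0.341), Krt7 (0.698) and Sox9 (0.117) were not. Their summed level was 62.1 to 120.3 CPM in the controls and 99.3 to 642.0 on CD-LFD. With controls 1 and 2 as the only controls 7 were higher.

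Cell cycle genes were higher at low absolute levels. Of 27 tested, 18 were higher and none lower (median 1.22), with a summed level of 108.7 to 127.5 CPM in the controls and 228.5 to 254.2 on CD-LFD. Mki67, the proliferation antigen, went from 0.481 to 1.54 CPM (median 0.704) to 7.92, 10.3 and 7.55 (3.31, SE 0.409, adjusted p = 1.08e-07). Ccnd1, cyclin D1 of the G1 phase, went from 5.66 to 19.2 (median 10.8) to 81.0, 85.6 and 69.7 (2.74, SE 0.369, adjusted p = 5.39e-07). Top2a, a topoisomerase of dividing cells, went from 0.815 to 1.44 to 3.54, 3.37 and 3.55 (1.65, SE 0.378, adjusted p = 0.00135). The 3 CD-LFD libraries lay close together for each of these and above all controls. Ccnb1, cyclin B1 of mitosis, had 2 control reads and was 30.3-fold higher (7.88 to 259). Pcna, the replication clamp, was not called (adjusted p = 0.994). The count was 13 without CD-LFD 3 and 5 with controls 1 and 2 as the only controls.

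Of 26 genes tied to liver tumours or fetal liver, 17 were higher and 1 lower (median 1.63), and 8 and 0 without CD-LFD 3. Afp, alpha-fetoprotein, was at 5.83, 4.85 and 6.57 CPM against 2.05 to 3.61 (1.10, SE 0.319, adjusted p = 0.0107, and 0.0995 without CD-LFD 3). Spink1, a trypsin inhibitor raised in liver tumours, had 1 control read and was 53.3-fold higher (8.97 to 2162). Sox4, a progenitor transcription factor, was at 15.4, 6.53 and 36.03 against at most 4.73 (2.76, SE 0.448, adjusted p = 1.6e-05). Myc was at 40.0, 28.2 and 65.6 against 1.89 to 46.8, with control 1 at the top of its group (1.74, SE 0.573, adjusted p = 0.0237, and 0.204 without CD-LFD 3). Gpc3, the oncofetal glypican, was not called (1.06, adjusted p = 0.399), nor was H19, an imprinted fetal RNA (2.74, adjusted p = 0.207), and Igf2 had no read in either group. Of 21 p53 targets 5 were higher and none lower (23.8% called, near the 24.1% over all genes), 3 both without CD-LFD 3 and with controls 1 and 2 alone, and 8 by total count alone. Among the 5 was Gdf15, a stress cytokine (1.15, adjusted p = 0.0472), while Cdkn1a, the p21 inhibitor, was not called (1.05, adjusted p = 0.0847).

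Of 23 genes of phosphatidylcholine synthesis and choline uptake 3 were higher and 3 lower (26.1% called, near the 24.1% over all genes, median 0.08), 2 and 0 without CD-LFD 3, and 1 and 0 with controls 1 and 2 alone. They were 2 and 1 without CD-LFD 1, control 3 or the library labelled control 5, 3 and 1 without CD-LFD 2, 6 and 3 without control 1 and 5 and 2 without control 2. By total count alone 7 were higher and 1 lower (median 0.36). Lpcat2, which remodels the acyl chains of phosphatidylcholine, was at 3.12, 2.74 and 3.78 CPM against 0.481 to 2.095 (1.49, SE 0.308, adjusted p = 0.000429). Etnk1, an ethanolamine kinase, was at 53.1, 47.4 and 41.3 against 57.5 to 183 (-1.24, SE 0.325, adjusted p = 0.00493, and 0.0524 without CD-LFD 3 and 0.599 with controls 1 and 2 alone). Pemt, which makes phosphatidylcholine without choline, changed by 0.19 (adjusted p = 0.442) and Chka, choline kinase, by 0.26 (adjusted p = 0.725). Slc44a1, a choline transporter, fell from 32.2 to 40.4 CPM to 23.8, 24.4 and 26.3 (-0.57, SE 0.202, adjusted p = 0.0369, and 0.307 when scaled by total count alone). Of 21 genes of the methionine cycle, in which betaine from choline gives a methyl group, 1 was higher and 7 lower (38.1% called, median -0.33), with 3 lower without CD-LFD 3 or without CD-LFD 1, 2 with controls 1 and 2 alone and 4 by total count alone. Gnmt, which uses up S-adenosylmethionine, went from 1139 to 2274 (median 1838) to 530.7, 869.3 and 414.4 (-1.57, SE 0.374, adjusted p = 0.00205), and Mat2a, the S-adenosylmethionine synthetase of non-hepatocyte and dividing cells, from 84.2 to 112 (median 102) to 188, 177 and 184 (0.85, SE 0.218, adjusted p = 0.00397). The groups did not overlap for either gene. Mat1a, the hepatocyte synthetase, was not called (-0.33, adjusted p = 0.283), nor was Bhmt, the betaine methyltransferase (-0.27, adjusted p = 0.488).

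Of 24 genes of cholesterol synthesis and uptake 10 were lower (41.7%, beside 10.1% lower over all genes) and none higher (median -0.68, and 6 lower with a median of -0.37 when scaled by total count alone). Sqle, squalene epoxidase, went from 58.1 to 185 CPM to 47.3, 41.7 and 46.5 (-1.42, SE 0.333, adjusted p = 0.00175), below every control. Idi1, isopentenyl diphosphate isomerase, was at 9.79, 9.28 and 6.88 against 15.2 to 95.7 (-2.73, SE 0.776, adjusted p = 0.00915, and 0.0752 without CD-LFD 3). Fdft1, squalene synthase (-0.24, adjusted p = 0.467), and Hmgcs1, the HMG-CoA synthase (-0.20, adjusted p = 0.655), were not called. The count was 4 without CD-LFD 3 and 3 with controls 1 and 2 as the only controls. Of 23 genes of fatty acid synthesis 4 were lower and 1 higher (21.7% called, near the 24.1% over all genes), 1 and 0 without CD-LFD 3, 2 and 0 without CD-LFD 1, control 3 or control 4, 1 and 1 without CD-LFD 2, and 2 and 1 with controls 1 and 2 alone. By total count alone 2 were lower and 3 higher. In the fit with all libraries malic enzyme Me1 (-2.05, SE 0.606), ATP citrate lyase Acly (-1.27, SE 0.462) and acetyl-CoA synthetase Acss2 (-1.03) were among those that fell and the desaturase Scd2 rose (1.001), while Fasn (-0.66, adjusted p = 0.217) and Scd1 (-1.07, adjusted p = 0.153) were not called.

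Of 22 PPAR-alpha targets and fatty acid oxidation genes 4 were higher and none lower (18.2% called, beside 24.1% over all genes), and 2 with controls 1 and 2 alone. Pdk4, which diverts pyruvate from oxidation, went from 0.838 to 8.38 CPM (median 3.46) to 43.3, 18.1 and 30.2 (3.11, SE 0.451, adjusted p = 2.33e-06), and Fgf21, a starvation hormone, from 0.158 to 6.08 to 12.7, 9.70 and 12.9 (2.82, SE 0.545, adjusted p = 0.000192, and 0.12 with controls 1 and 2 alone). Aqp7, a glycerol channel of adipocytes, had 1 control read and was 91.8-fold higher (15.9 to 3682), while Cpt1a, the gate of mitochondrial oxidation, was not called (-0.10, adjusted p = 0.825). Of 19 lipid droplet and fatty acid uptake genes 3 were higher and 1 lower (21.1% called), 1 and 1 with controls 1 and 2 alone, 5 and 1 without control 1, and 9 and 1 by total count alone. Cidec, which fuses droplets, was at 76.9, 25.9 and 65.0 against 6.99 to 29.3 (1.65, SE 0.416), with CD-LFD 2 inside the control range, and Cd36, a fatty acid transporter, at 99.2, 91.9 and 117 against 27.8 to 82.7 (1.11, SE 0.292). Abhd5, the co-activator of droplet lipolysis, fell by 0.88 (SE 0.234), and Plin2, the main droplet coat protein, was not called (0.51, adjusted p = 0.278). Of 19 apolipoprotein and lipoprotein assembly genes 1 was higher and 4 lower (26.3% called, near the 24.1% over all genes). Apoa4 rose from 56.3 to 127 (median 74.2) to 527, 429 and 482 (2.54, SE 0.324, adjusted p = 2.11e-07) and those that fell (2 both without CD-LFD 3 and with controls 1 and 2 alone) included Mttp, which loads lipid onto apolipoprotein B (-0.96, adjusted p = 0.0241, and 0.139 without CD-LFD 3), and Pltp, a phospholipid transfer protein (-2.10, SE 0.524).

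Of 23 bile acid genes 8 were lower and 1 higher (39.1% called, median -0.40), 4 and 1 without CD-LFD 3, 5 and 1 without CD-LFD 1, 3 and 0 with controls 1 and 2 alone, and 6 and 2 by total count alone. Slc10a1, the uptake transporter NTCP, went from 418 to 721 CPM to 205, 375 and 210 (-1.17, adjusted p = 0.0166), Abcb11, the bile salt export pump, from 509 to 646 to 307, 381 and 310 (-0.75, SE 0.213), and Cyp7b1, of the alternative synthesis route, from 183 to 640 to 180, 187 and 103 (-1.43, SE 0.373). Cyp7a1, the rate-limiting enzyme, was not called (-0.97, adjusted p = 0.306). Abcb4, which moves phosphatidylcholine into bile, was the member called higher, at 417.2, 449.2 and 422.3 against 246.3 to 379.8 (0.54, SE 0.159, adjusted p = 0.0113). Its CD-LFD values lay close together and above all controls.

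Of 23 drug-metabolising P450 genes and partners 11 were lower and 1 higher (52.2% called, beside 10.1% lower and 14.0% higher over all genes, median -0.74), 5 and 1 without CD-LFD 3, 7 and 1 without CD-LFD 1, 6 and 1 with controls 1 and 2 alone, and 6 and 3 by total count alone. Cyp3a25 went from 525.5 to 1118 CPM to 211.6, 318.9 and 289.9 (-1.47, SE 0.341), and Cyp2b9, a P450 of female liver, was the member that rose, from 0.194 to 1.68 to 22.7, 24.9 and 14.0 (4.49, SE 0.627, adjusted p = 1.16e-06). Cyp2e1, of the central vein zone, was not called (0.12, adjusted p = 0.79). Of 26 conjugating enzymes 6 were higher and 5 lower (42.3% called), 5 and 3 without CD-LFD 3 or without CD-LFD 1, and 8 and 4 by total count alone: beside Sult1e1 the glutathione transferases Gsta1, at 43.1, 11.4 and 40.5 against 0.241 to 10.1 (3.24, SE 0.566), and Gstm3, at 323, 183 and 455 against 35.9 to 118 (2.20, SE 0.315, adjusted p = 1.81e-06), rose. Of 24 NRF2 targets, the oxidant-response genes, 8 were higher and none lower (33.3% called), 4 and none without CD-LFD 3, 4 and 1 with controls 1 and 2 alone, and 13 and none by total count alone.

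Genes that differ between male and female liver under growth hormone pulses moved unequally. Of 17 tested male-biased genes 9 were lower and none higher (median -1.07), and of 17 tested major urinary proteins 10 were lower and 1 higher (median -1.71). Mup21 was the member called higher, at 389, 579 and 436 CPM against 170 to 382 (0.96, SE 0.308, adjusted p = 0.02), and Mup20, darcin, was not called (0.58, adjusted p = 0.0879). Of 13 tested female-biased genes 3 were higher and 1 lower (30.8% called), 1 and 0 without CD-LFD 3, 2 and 1 with controls 1 and 2 alone, and 6 and 1 by total count alone. Of those rises 2 rested on CD-LFD 3, the library with the most Xist reads: Cyp2a4 was at 7.71, 5.27 and 50.1 against 1.57 to 5.73 (adjusted p = 0.307 without it) and Cux2 at 0.208, 1.48 and 2.49 against at most 0.583 (adjusted p = 0.413 without it). Without CD-LFD 3, 4 male-biased genes and 6 major urinary proteins were lower and none higher, and with controls 1 and 2 alone 3 male-biased genes were lower and 1 higher and 6 major urinary proteins lower. By total count alone 6 male-biased genes were lower and 1 higher, and 8 major urinary proteins lower and 2 higher. The growth hormone and IGF axis list had 3 of 19 tested genes higher and 2 lower (26.3% called, near the 24.1% over all genes, median -0.18). Its counts were 1 and 1 both without CD-LFD 3 and with controls 1 and 2 alone. Ghr (-0.56, adjusted p = 0.0581) and Igf1 (-0.32, adjusted p = 0.292) were not called, and the prolactin receptor Prlr fell by 1.69 (SE 0.449). Igfbp2, an IGF-binding protein, rose from 444.2 to 744.6 to 1066, 2370 and 1284 (1.49, SE 0.272, adjusted p = 9.25e-05).

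Of 12 hepatocyte markers 3 were lower and none higher (25% called, near the 24.1% called over all genes, and beside 10.1% lower). A negative change was seen in 11 of the 12 (median -0.42 beside 0.01), with a summed level of 156400 to 187000 CPM in the controls and 104300 to 167600 on CD-LFD. Without CD-LFD 3, 1 was lower, and none with controls 1 and 2 alone. Fgb, a fibrinogen chain also made in the acute phase, fell by 1.34 (SE 0.302, adjusted p = 0.00112, and 0.401 with controls 1 and 2 alone). Of 20 hepatocyte transcription factors 4 were lower and 1 higher (25% called, near the 24.1% over all genes), 1 and 1 without CD-LFD 3, 3 and 0 without CD-LFD 1, 3 and 3 by total count alone, and none was called against controls 1 and 2 alone. Hnf4a, the central one, went from 648.2 to 1385 CPM to 524.9, 689.1 and 399.3 (-0.94, SE 0.24, adjusted p = 0.00388, and 0.0713 without CD-LFD 3), and Foxa3, a pioneer factor, from 56.8 to 181 to 52.5, 41.7 and 36.3 (-1.47, SE 0.336, adjusted p = 0.00136). Genes of liver zonation moved both ways on each side: of 24, 4 were higher and 5 lower (37.5% called), 4 and 2 without CD-LFD 3, without CD-LFD 1 or with controls 1 and 2 alone, and 6 and 2 by total count alone. In the central vein zone 3 genes were higher and 1 lower. Glul, glutamine synthetase, went from 724.3 to 1058 (median 981.2) to 1341, 1787 and 2408 (0.99, SE 0.202, adjusted p = 0.000414), Rhbg, an ammonium transporter, from 0.628 to 1.93 to 6.67, 8.01 and 9.44 (2.62, SE 0.303, adjusted p = 2.57e-08), and Lect2, a secreted chemotactic protein, from 74.3 to 110.4 to 199.3, 203.2 and 277.7 (1.24, SE 0.177, adjusted p = 1.75e-06). Oat, an ornithine aminotransferase of the same zone, was at 325.1, 487.1 and 551.7 against 734 to 1005 (-0.89, SE 0.269, adjusted p = 0.0141, and 0.0732 with controls 1 and 2 alone). The Wnt targets Lgr5 (0.28, adjusted p = 0.544), Axin2 (0.70, adjusted p = 0.0724) and Nkd1 (0.39, adjusted p = 0.297), which mark that zone, were not called. On the portal side Aldh1b1, an aldehyde dehydrogenase, was higher (0.99, adjusted p = 0.0142), and Ctsc (-1.48, adjusted p = 0.00306) and Gls2 (-0.81, adjusted p = 0.0091) were among the genes that were lower. Ctsc lost its call with controls 1 and 2 alone (0.533), and Gls2 lost its call without CD-LFD 3 (0.124). Also lower, Cps1, of the urea cycle, was at 1391, 2342 and 1073 against 2022 to 5339 (-1.36, adjusted p = 0.0399, and 0.214 without CD-LFD 3). Of 14 endothelial markers 6 were lower and 2 higher (57.1% called), 2 and 1 without CD-LFD 3, and 1 and 0 with controls 1 and 2 alone. Among the 8 were Kdr, the VEGF receptor (-1.35, SE 0.288), Clec4g, a sinusoidal lectin (-1.25, SE 0.279, and an adjusted p of 0.069 with controls 1 and 2 alone), and Stab2, a sinusoidal scavenger receptor (0.73, adjusted p = 0.0212, and 0.486 with controls 1 and 2 alone).

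Of 30 genes of necroptosis and cell death, the pathway around the deleted kinase, 8 were higher and 3 lower (36.7% called, beside 24.1% over all genes, median 0.21), 2 and 2 without CD-LFD 3, 6 and 0 with controls 1 and 2 alone, and 12 and 2 by total count alone. Upstream, Ripk1, the kinase that recruits RIPK3, went from 29.4 to 58.3 CPM to 23.1, 22.1 and 20.02 (-1.09, SE 0.248, adjusted p = 0.00133), but with controls 1 and 2 alone the change was -0.47 (adjusted p = 0.343). Cflar, the caspase 8 regulator, fell by 0.91 (SE 0.219), and Casp8 itself was at 39.6, 43.8 and 33.4 against 32.2 to 45.7 (-0.07, adjusted p = 0.8). Zbp1, the sensor that can engage RIPK3 directly and is itself interferon-induced, was at 28.5, 16.2 and 18.9 against 4.47 to 16.8 (1.53, SE 0.329, adjusted p = 0.000725), with CD-LFD 2 just inside the control range. Of the inflammasome, Pycard, the adaptor ASC (1.77, adjusted p = 0.00418, and 0.184 without CD-LFD 3), and Casp1 (0.97, adjusted p = 0.0353, and 0.175 without CD-LFD 3) were higher, and Fasl, the death ligand, with 2 control reads, was 11.8-fold higher (2.78 to 106) and not called without CD-LFD 3 (adjusted p = 0.831). Mlkl, given above, remained called in every alternative fit run.

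The acute phase list, plasma proteins that hepatocytes secrete under IL-6 together with the membrane proteins Il1r1 and Steap4, changed with the controls used. Of 22 tested, 13 were lower, Il1r1 (-1.53) and Steap4 (-3.16) among them, and none higher (median -1.44). The median for the same contrast was -1.655 in the Mlkl knockout and 0.04 in wild type. With controls 3 to 6 alone 19 were lower and none higher, and with controls 1 and 2 alone 7 were higher and 1 lower. Saa1, serum amyloid A1, was at 13.2 and 37.9 CPM in controls 1 and 2, at 2075, 2811, 9103 and 5152 in controls 3 to 6, and at 179, 104 and 140 on CD-LFD (-4.51, SE 0.961, adjusted p = 0.00064). With controls 1 and 2 alone the change was 2.49 (adjusted p = 0.00287), so its sign turned with the controls used. Its near copy Saa2 went likewise from -5.08 (SE 1.14, adjusted p = 0.00109) to 3.30 (adjusted p = 0.00392). Lcn2, the siderophore-binding lipocalin, was at 2.53 and 5.45 in controls 1 and 2, at 178.6 to 806.0 in the others and at 109, 65.1 and 91.6 on CD-LFD (-1.87, adjusted p = 0.1). Orm2, an orosomucoid, was at 4.28 and 4.19, at 68.8 to 926 and at 160, 72.9 and 124 (-1.32, adjusted p = 0.239). Lbp, the endotoxin-binding protein, was lower with either set: at 58.5, 62.0 and 44.04 it lay below all 6 controls (94.3 to 324.4, -1.82, SE 0.32, adjusted p = 5.45e-05, and 0.0399 with controls 1 and 2 alone). The metal-binding proteins Mt1 and Mt2 followed the same split, Mt1 at 86.5 and 84.0, at 999.7 to 1365 and at 115, 87.9 and 56.9 (-3.23, SE 0.834, adjusted p = 0.00424), and with controls 1 and 2 alone its log2 change was 0.05 (adjusted p = 0.987).

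**Figure D4:**
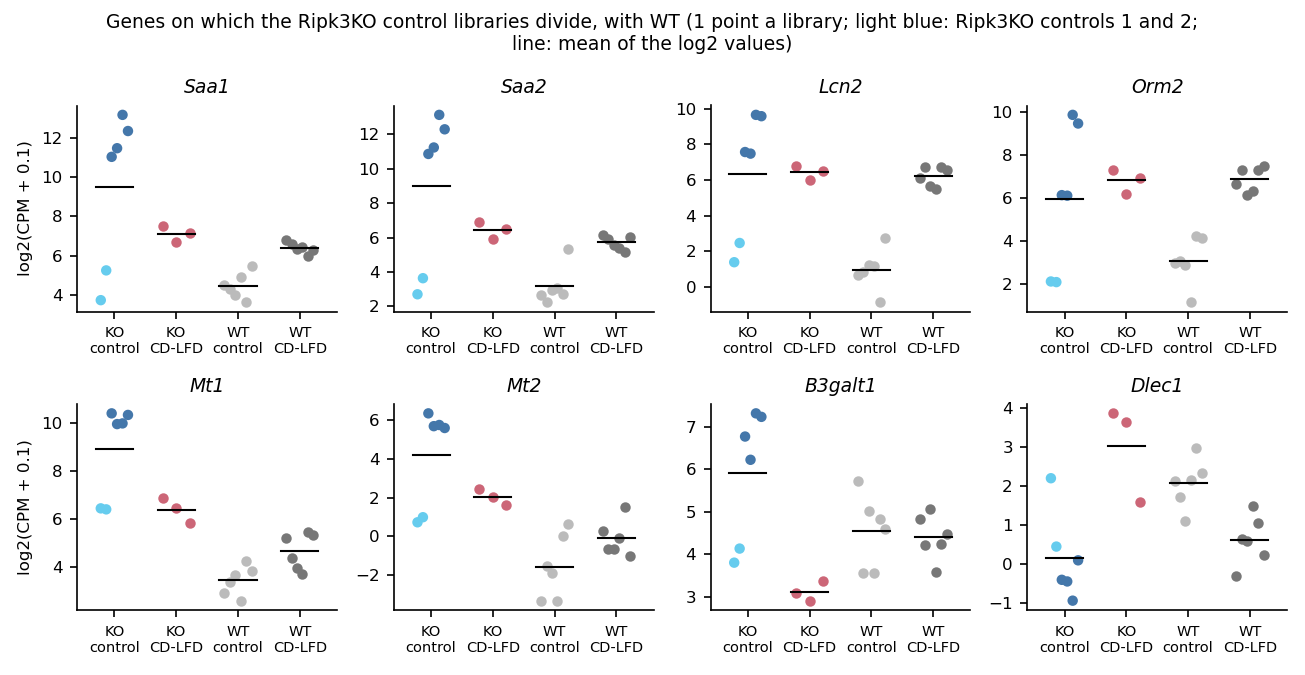
Log2 of CPM plus 0.1 of 8 genes in each Ripk3 knockout and wild-type library on the control and CD-LFD diets, with controls 1 and 2 of the knockout in light blue. For Saa1, Saa2, Lcn2 and Orm2 the 3 CD-LFD libraries lie above controls 1 and 2, and for Saa1 and Saa2 they lie below controls 3 to 6.

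Chaperones of the endoplasmic reticulum and of heat shock showed the same dependence. Of 26 genes of the unfolded protein and integrated stress responses 10 were lower and 4 higher (median -0.47), but with controls 1 and 2 alone none was lower and 2 were higher (median 0.04), and without CD-LFD 3 the counts were 1 and 2. They were 6 and 2 without CD-LFD 2 and 5 and 3 without control 4, and by total count alone the split turned to 4 lower and 5 higher (median -0.17). Hspa5, the chaperone BiP, was at 908.4 and 1050 CPM in controls 1 and 2, at 2021, 4848, 1258 and 2189 in controls 3 to 6 and at 1124, 862.6 and 751.5 on CD-LFD (-1.16, SE 0.357, adjusted p = 0.0149), and at a change of -0.07 with controls 1 and 2 alone. Creld2, a secreted chaperone, was highest by far in control 4, at 747 against 69.8 to 208 in the other controls and 104, 57.3 and 40.4 on CD-LFD (-1.79, SE 0.512, adjusted p = 0.00966), and at -0.25 with controls 1 and 2 alone. The members called higher were Atf3, Trib3, Asns and Atf5, which ATF4 can induce, while Atf4 itself (-0.18, adjusted p = 0.554), Ddit3 (0.12, adjusted p = 0.851), Chac1 (0.18, adjusted p = 0.842), Ppp1r15a (0.08, adjusted p = 0.832) and Sesn2 (0.55, adjusted p = 0.137) were not called. Atf3 was at 12.3, 7.38 and 21.98 against 0.419 to 4.24 (2.45, SE 0.443, adjusted p = 8.28e-05), Trib3, a pseudokinase, at 23.9, 35.6 and 33.4 against 2.52 to 20.4 (1.80, SE 0.554), and the log2 changes of Asns and Atf5 were 1.16 and 0.82. Of 19 heat shock chaperones 9 were lower (47.4%), 4 without CD-LFD 3 or without CD-LFD 2, 5 without control 4, 4 by total count alone and none with controls 1 and 2 alone.

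ATF6 and XBP1 act at the endoplasmic reticulum stress element, searched as CCAAT and CCACG with any 9 bases between them, on both strands, in the same promoter windows. It was found in 7 of 25 windows of the list (28%), in 4 of 9 windows of members called lower (44.4%) and in 3 of 16 of the others (18.8%), beside 0.119% of all windows. The 200 bases before the start are shown for the pair described above, with the match in capitals. The Creld2 window is chr15:88819446-88819645 on the plus strand, with a match to the reverse complement (CGTGG, 9 bases, ATTGG) from 126 bases before the start. The Hspa5 window is chr2:34771890-34772089 on the plus strand, with a match from 65 bases before the start.
Creld2: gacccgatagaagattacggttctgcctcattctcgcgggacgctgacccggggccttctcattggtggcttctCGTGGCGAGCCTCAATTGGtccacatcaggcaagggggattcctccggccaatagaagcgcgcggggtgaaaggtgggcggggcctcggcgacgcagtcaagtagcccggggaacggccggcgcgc
Hspa5: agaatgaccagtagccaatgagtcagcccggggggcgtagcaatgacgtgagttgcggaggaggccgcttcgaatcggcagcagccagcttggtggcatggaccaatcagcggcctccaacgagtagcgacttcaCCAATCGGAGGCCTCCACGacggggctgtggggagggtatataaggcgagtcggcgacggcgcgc
The sterol regulatory element TCACNCCAC, sought for the cholesterol genes, was in 0 of 7 windows of members called lower, in 1 of 19 windows of the list and in 1.24% of all windows.

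Whether the knockout responded to CD-LFD unlike wild type was tested as an interaction, the log2 change in the knockout minus that in wild type. Of 14862 genes 4 were called (0.0269%), 1 higher (0.00673%) and 3 lower (0.0202%), and 1230 had an unadjusted p under 0.05 (8.28%). Dlec1, a candidate tumour suppressor, was the member with a larger change in the knockout (4.28): it was at 4.47 CPM in control 1, at 0.419 to 1.26 in the other controls and at 14.4, 12.2 and 2.87 on CD-LFD (2.81, SE 0.61, adjusted p = 0.000785, and 0.185 with controls 1 and 2 alone). The other 3 were Saa2 (-7.24), Lcn2 (-6.83) and Saa1 (-6.33), each with an adjusted p of 0.0184. In wild type Saa1 lay between 12.3 and 43.8 CPM in the 6 controls and between 62.2 and 110.6 on CD-LFD, a log2 change of 1.83 (SE 0.652), so the wild-type controls lay with knockout controls 1 and 2. In Mlkl knockout controls Saa1 lay between 473.1 and 4053. With controls 1 and 2 as the only knockout controls the interaction of Saa2 was 1.14 and of Saa1 0.65, and that of Lcn2 was -0.47, none called, and that of Dlec1 was 3.195 and not called either (adjusted p = 0.426). In that fit 3 other genes were called. With controls 3 to 6 alone all 4 were called, and without CD-LFD 3 only Dlec1 was (adjusted p = 0.011), with Saa1 and Lcn2 at 0.163 and Saa2 at 0.167. The call count was 0 with the robust fit, with only the 4 groups in the fit, and without CD-LFD 1 or without CD-LFD 2, 32 with DESeq2, and 173 with controls 3 to 6 alone. The log2 ratio of the clock genes Arntl to Dbp, which follows the time of day, lay between -7.40 and -5.68 in knockout controls, between -7.34 and -6.10 in knockout CD-LFD, and between -7.88 and 2.70 in wild-type controls, and its part in the interaction was not tested beyond a fit with that ratio as a covariate, which also called 4 genes.

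Against the high-fat version of the choline-deficient diet most lipid-laden macrophage genes were lower in the low-fat knockout livers. Between CD-HFD and CD-LFD 1312 genes were called (8.83%), 854 higher (5.75%) and 458 lower (3.08%) on CD-HFD. The count was 500 without CD-LFD 2, 670 without CD-LFD 1 and 774 without CD-HFD 5. Mmp12 was at 24.6, 17.1 and 28.03 CPM on CD-LFD and at 263, 296, 297 and 304 on CD-HFD (3.63, adjusted p = 2.01e-09), and Gpnmb at 319 to 453 on CD-HFD (3.26, adjusted p = 1.55e-06). All 4 CD-HFD libraries lay far above all CD-LFD libraries for both. Of the lipid-laden macrophage list 17 of 21 were higher on CD-HFD (median 1.94), with 15 to 17 when any CD-LFD or CD-HFD library was left out. Of the matrix list 15 of 32 were (median 1.32), 5 without CD-LFD 2 and 9 without CD-HFD 5, and of the interferon-stimulated list 2 of 26 (median 0.36), none without CD-LFD 2 or without CD-HFD 3 and 1 without CD-LFD 3 or without CD-HFD 5. Vsig8, an immunoglobulin domain protein, was at 2.08, 0 and 0.302 on CD-LFD and at 5.33 to 8.92 on CD-HFD (3.40, adjusted p = 0.000381). H19 was at 67.3 in CD-HFD 1 and at 4.18 to 5.42 in the other 3 (4.51, adjusted p = 0.00277), and without CD-HFD 1 the change was 2.51 and not called.

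Major urinary proteins and male-biased genes were lower on CD-HFD than on CD-LFD: 14 of 17 tested major urinary proteins (median -3.35) and 13 of 17 male-biased genes (median -1.65). Hsd3b5, a steroid dehydrogenase of male liver, was at 49.0, 91.9 and 40.0 CPM on CD-LFD and at 4.16, 0.110, 0.175 and 0.0853 on CD-HFD (-6.12, adjusted p = 1.15e-05), and Mup7 at 324, 426 and 138 against 14.8, 1.43, 2.71 and 1.02 (-6.01, adjusted p = 1.66e-05). CD-HFD 1 was the highest of its group for both and still below all CD-LFD libraries. Gtpbp4-ps1, a pseudogene whose reads may come from its parent, was at 12.1, 4.85 and 4.83 against 0 to 0.333 (-5.88, adjusted p = 5.26e-05), Chrna4, a nicotinic receptor subunit, at 29.99, 8.43 and 9.29 against 0.256 to 1.17 (-5.05, adjusted p = 0.00393), and Mup17 at 0.683 to 2.83 on CD-HFD (-4.33, adjusted p = 0.00177). Of 23 genes of fatty acid synthesis 10 were lower on CD-HFD and 1 higher, beside 3.08% lower and 5.75% higher over all genes. The lower count was 7 to 10 when any CD-LFD or CD-HFD library was left out. Among them were Scd1 (-2.91, adjusted p = 0.001) and Fasn (-1.67, adjusted p = 0.00734, and 0.0531 without CD-LFD 3), neither of which was called between CD-LFD and control. Glul was higher on CD-LFD than on chow and lower on CD-HFD than on CD-LFD (-0.87, adjusted p = 0.00938, and 0.0955 without CD-LFD 3).

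**Figure D5:**
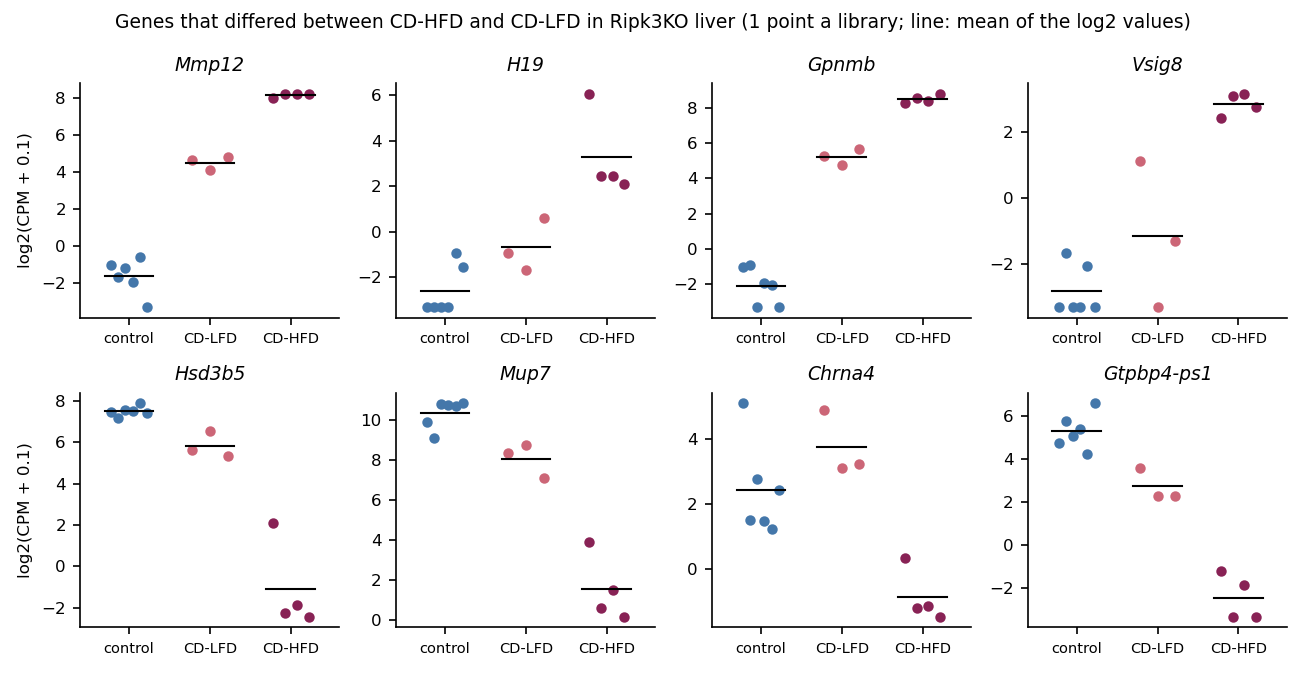
Log2 of CPM plus 0.1 of 8 genes in each Ripk3 knockout library on the control, CD-LFD and CD-HFD diets, taken from the largest differences between the 2 choline-deficient diets. Mmp12, Gpnmb and Vsig8 are higher in all 4 CD-HFD libraries than in all CD-LFD libraries, Hsd3b5, Mup7, Chrna4 and Gtpbp4-ps1 are lower, and the CD-HFD 1 library stands above its group for H19, Hsd3b5, Mup7 and Chrna4.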

How the data were processed

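Liver RNA was sequenced from directional libraries, per the labels' protocols, and the authors deposited 1 table of raw counts per gene for 44 libraries. The submitters' processing notes name FastQC, STAR, HTSeq, edgeR and limma and the build GRCm39 (mm39), with no versions or roles, and whether the counting used strand is not given in the sources used here. The table held 35249 gene identifiers, of which 34373 matched a symbol in the annotation tables used and 876, with 0.0838% of the counts, did not.

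Counts were tested as deposited with edgeR 4.0.16 in R 4.3.3: 1 mean per group (9 groups, all 44 libraries sharing the spread), TMM scaling, filterByExpr with a minimum count of 10 (14862 genes, 99.8% of counts), the quasi-likelihood F test and Benjamini-Hochberg adjustment at 0.05 within each comparison. A log2 change is CD-LFD minus control, and its SE is its size over the square root of F. DESeq2 1.42.0, other scalings, no count filter, covariates and each library left out were alternatives, and the splits of the controls were added after seeing the data. The statistics were tested on simulated data. Replicate libraries differed by more than sampling noise in every pair (chi-square per degree of freedom 7.26 to 99.0). Ratios of genes with 3 or fewer counts in a group carry exact 95% intervals for counting error only.

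Named genes were the 10 largest rises and falls, the 8 largest with a mean of at least 50 CPM in either group, and the 5 largest in each direction for the interaction and for CD-HFD against CD-LFD. All were called, had a mean of at least 1 log2 CPM and a symbol that is no predicted gene, and, except for the interaction, groups that did not overlap. A few genes that met these rules are not reported here. Of each gene list the members with the smallest adjusted p, or those whose role matters, were named. Members and gene lists were chosen with earlier results of these data known. Marker lists for adipocytes (4 tested, 1 higher, none without any single CD-LFD library, 2 by total count alone and 1 lower with controls 1 and 2 alone), muscle (3 tested, none called, 1 higher by total count alone), erythroid cells (5 tested, none called) and gall bladder and gut (3 tested, 1 higher, 3 by total count alone) were read too. Other lists read were metal transport (3 of 18 higher and 7 lower, 0 and 5 without CD-LFD 3, 1 and 7 without CD-LFD 1 or control 6, 1 and 2 with controls 1 and 2 alone, 5 and 6 by total count alone) and the pancreatic markers (1 tested, lower, and not called in either).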

Additional observations from a re-analysis of the deposited data

Results flagged for a closer look

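In groups of 4 to 10 libraries, 1 library stood far from the rest of its group for 10 of the 45 gene and group combinations examined. Chance alone flags about 1 in 20 unselected groups, a rate that does not hold for genes chosen by their changes. In the knockout controls the flagged values were Ripk3 (1.26 CPM, 9 reads) and Mlkl (8.10 CPM) in the library labelled control 5 and Dlec1 in control 1 (4.47 CPM). Also flagged were 3 genes whose control value is a single read: Vmn2r3 in control 3 (0.163 CPM), Cbx3-ps8 in control 1 (0.194 CPM) and Sprr1a in control 3 (0.163 CPM). For these 3 genes the flag was certain, since no other control held a read. In the knockout CD-HFD libraries the same library, CD-HFD 1, stood above its group for H19 (67.3 CPM), Hsd3b5 (4.16 CPM), Mup7 (14.8 CPM) and Chrna4 (1.17 CPM).

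The log2 change from control to CD-LFD differed between knockout and wild type, by the test of that difference, for Dlec1 (4.28), Saa2 (-7.24), Lcn2 (-6.83) and Saa1 (-6.33). With controls 1 and 2 as the only knockout controls none of the 4 was called (adjusted p = 0.426 for Dlec1, 0.845 for Saa2, 0.953 for Lcn2 and 0.862 for Saa1), and with controls 3 to 6 alone all 4 were.

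Xist reached 11.7 CPM over all counts, without TMM factors, in CD-LFD 3 (144 reads) and at most 1.91 in the other 43 libraries. The labels do not say how many animals a library holds.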

How the results depend on the processing

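For CD-LFD against control in the knockout, the 3576 calls became 1278 with controls 1 and 2 as the only controls, and leaving out single libraries gave 1360 (without CD-LFD 3) to 4108. The interaction's 4 calls became 22 with no count filter, 0 with the robust fit, 8 with the predicted-gene share as a covariate, 0 with only the groups compared, 173 with controls 3 to 6 alone and 32 with DESeq2, and 0 to 26 with single libraries left out. The 1312 calls between CD-HFD and CD-LFD became 2391 with the predicted-gene share as a covariate and 2786 with only the groups compared, and 500 (without CD-LFD 2) to 1321 with single libraries left out. The labels do not say that equal replicate numbers pair libraries, and 3 such pairs per comparison are too few to decide it. Same-numbered libraries deviated from their group means with correlations of -0.0804 to 0.0964 (control and CD-LFD) and -0.295 to 0.201 (CD-LFD and CD-HFD). Not every library correlated best with its own number. A replicate block over the same-numbered libraries called 1296 genes in the main comparison, against 1213 in those libraries without the block, 0 in the interaction with the block and 0 without it, and 1002 between the diets against 1507. Of 47 named-gene results 10 lost a call in some alternative, and of their 995 alternative values 952 kept direction and side of the threshold, 39 fell short of it, 2 passed it (both of Ripk3) and 2 reversed. The reversals were the interactions of Saa2 (1.14) and Saa1 (0.65) with controls 1 and 2 alone. The cause of these shifts was not tested, and fits with fewer libraries also had fewer degrees of freedom. With 3 CD-LFD libraries of 4676294 to 12266692 counts, genes under 1 CPM rest on a few reads per library.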

Other observations

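Of 23 genes of glycolysis and gluconeogenesis 5 were higher and 2 lower in the knockout on CD-LFD (30.4% called, beside 24.1% over all genes), 1 and 2 without CD-LFD 3, 2 and 2 without CD-LFD 1, 3 and 2 without CD-LFD 2, control 3 or control 4, 1 and 1 with controls 1 and 2 as the only controls, and 8 and 2 by total count alone. Ppargc1a, the co-activator of fasting gene programmes, lay between 3.94 and 17.3 CPM in the controls and at 17.7, 38.8 and 20.6 on CD-LFD (1.49, SE 0.346, edgeR adjusted p = 0.00157, and 0.211 with controls 1 and 2 as the only controls). Hk2, a hexokinase that adult hepatocytes barely express, went from 1.05 to 2.61 CPM to 3.54, 4.43 and 5.14 (1.13, SE 0.324, adjusted p = 0.00981, and 0.111 without CD-LFD 3). In both genes every CD-LFD library lay above every control. Of 24 genes of the urea cycle and amino acid breakdown 1 was higher and 7 lower (33.3% called), 1 and 1 without CD-LFD 3, and 1 and 4 with controls 1 and 2 alone or without CD-LFD 1. Without CD-LFD 2 the counts were 1 and 12, and by total count alone 1 and 2. Nags, which makes the activator of the first urea cycle enzyme, was at 78.1, 78.0 and 63.1 CPM against 96.6 to 132.6 (-0.62, SE 0.157, adjusted p = 0.00379, and 0.0637 without CD-LFD 3 and 0.212 with controls 1 and 2 alone).

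Of 20 immediate early genes 6 were called higher (30%, beside 14.0% higher over all genes), and 3 both without CD-LFD 3 and with controls 1 and 2 alone. Klf6, a zinc finger factor of injured liver, went from 6.74 to 17.6 CPM to 58.1, 22.3 and 71.8 (2.22, SE 0.396, adjusted p = 6.56e-05), and Egr3 had no control read and was at least 4.44-fold higher (adjusted p = 0.00591, and 0.0593 without CD-LFD 3). Fos, Jun and Egr1, which respond within minutes to handling, were not called. Nfil3, a clock-linked repressor, fell from 26.6 to 82.0 CPM to 14.6, 15.4 and 12.3 (-1.79, SE 0.355, adjusted p = 0.000273), 1 of 2 calls among 20 clock genes (10% called), of which 1 was called without any single CD-LFD library, without control 3, 4 or 6, or by total count alone and none with controls 1 and 2 alone.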
